A study of Homo sapiens with 15 samples.

Results

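MYOD1, MYF5, MYF6, MYOG, PAX3, PAX7, SIX4, MEF2A and MEF2C, 9 transcription factors that direct skeletal muscle formation, were followed in BEAS-2B cells, an established human bronchial epithelial line. They were taken by their Entrez gene numbers from a table of 28395 genes. The set was selected on the measured counts of the 30-week controls against the other groups, so every value that involves those controls is given as a description, without a test. Of the 9 genes, 6 had counts and passed the filter on low counts, among 16740 genes tested. MYF5, MYF6 and PAX7 had 0 counts in all 15 samples.

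The study asked what chronic exposure to nanoplastics made from polyethylene terephthalate (PET-NPLs) does to lung cells, and measured total RNA by RNA-seq. Cells received PET-NPLs at 50 µg/mL for 24 h (2 samples), 15 weeks (2 samples) or 30 weeks (4 samples), and control cells without particles were kept for 24 h (2 samples), 15 weeks (2 samples) or 30 weeks (3 samples). All were grown in the same serum-containing DMEM with Plasmocin and were passage-matched, so the 6 groups share the line, the medium and the time in culture within each time point. By the labels, batch 1 held every sample of 24 h and 15 weeks, and batch 2 every sample of 30 weeks. Batch and 30 weeks of culture therefore cannot be told apart, while the exposed and control cells of each time point share a batch.

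MYOD1, MYF5, MYF6 and MYOG are the myogenic regulatory factors, basic helix-loop-helix proteins that bind E-boxes and switch on muscle genes. MYOD1 and MYF5 commit cells to the muscle lineage, MYOG drives terminal differentiation, and MYF6 acts mostly in late fibres. PAX3, PAX7 and SIX4 work upstream of them in muscle progenitors, and the MEF2 proteins are their partners at muscle promoters. None of the myogenic regulatory factors is part of the usual programme of airway epithelium.

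The sequences before 3 of the genes are shown because they hold motifs that these proteins are known to bind, in genes of the same set. Each is the 250 bases before the RefSeq start site, on the gene's own strand and from build GRCh38.p14. Capitals mark an E-box (CANNTG), a MEF3 site, which SIX4 binds (TCAGGTT), a MEF2 site or a TATA box (TATAAA). MYOG lies on the minus strand and its window is chr1:203086013-203086262. MEF2C lies on the minus strand, and the window before its outermost start is chr5:88904106-88904355. MYF6 lies on the plus strand with the window chr12:80707384-80707633.
MYOG: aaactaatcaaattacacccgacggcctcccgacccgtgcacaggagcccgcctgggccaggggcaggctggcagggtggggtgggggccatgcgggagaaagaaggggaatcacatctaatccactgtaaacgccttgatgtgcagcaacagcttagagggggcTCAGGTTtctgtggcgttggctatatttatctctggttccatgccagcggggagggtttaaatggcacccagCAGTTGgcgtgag
MEF2C: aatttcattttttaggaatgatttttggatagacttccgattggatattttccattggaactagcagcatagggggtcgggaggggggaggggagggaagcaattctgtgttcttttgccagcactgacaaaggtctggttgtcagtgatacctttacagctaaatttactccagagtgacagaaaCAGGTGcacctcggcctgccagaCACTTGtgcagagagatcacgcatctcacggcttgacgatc
MYF6: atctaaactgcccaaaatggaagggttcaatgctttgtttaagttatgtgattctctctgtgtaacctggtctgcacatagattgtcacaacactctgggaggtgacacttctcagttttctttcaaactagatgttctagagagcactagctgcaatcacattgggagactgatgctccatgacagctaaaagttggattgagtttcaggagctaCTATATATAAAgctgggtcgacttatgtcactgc
The MYOG window held the MEF3 site 85 to 79 bases and an E-box, CAGTTG, 13 to 8 bases before the start. The MEF2 pattern sought had to end in A or G. The near match ctatatttat in the MYOG window ends in t and is therefore not marked. The MEF2C window held the E-boxes CAGGTG and CACTTG, 64 to 59 and 41 to 36 bases before the start. MEF2C has further start sites. Some of their windows held none of these motifs, and another held a MEF2 site. Others held a CAGCTG E-box, joined by the E-box CATTTG in the window chr5:88884537-88884786. Which start these cells use was not determined. In the MYF6 window a MEF2 site overlapped the TATA box. Of 34943 RefSeq promoter windows of the same length, 61.83% held CANNTG, 2.799% TCAGGTT, 2.81% a MEF2 site (these 3 motifs were sought on both strands) and 6.82% TATAAA on the gene's strand, so an E-box by itself is common. Of the 9 genes, 8 had an entry in the promoter table. Among those not printed, MYF5 held an E-box and a TATA box. MEF2A held an E-box before its outermost start and a MEF2 site before another start. The windows of PAX3, PAX7 and SIX4 held none of these motifs. A match is a string of letters, and no binding was measured.

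Sequencing depth ran from 23143202 to 31459990 counts per sample. A set of 6 abundant small noncoding RNAs took 22.3% to 31.03% of the counts in the 30-week controls, 17.0% to 21.5% in the 30-week exposed cells and 9.75% to 12.9% in batch 1, and the levels below, in CPM (counts per 1000000 counts of the library), were set on library totals scaled by TMM. The epithelial label was checked against 15 markers. KRT8 and KRT18 were abundant in every group, but KRT5, KRT14, TP63, NKX2-1 and GRHL2 were at or near 0, and EPCAM and CDH1 were low. KRT7 lay at 1215 to 1414 CPM at 24 h, 5.29 to 23.4 CPM at 15 weeks and 1.25 to 3.29 CPM at 30 weeks over both arms, and KRT17 at 119.8 to 165.5 CPM at 24 h, 0.227 to 2.53 CPM at 15 weeks and 0.108 to 1.82 CPM at 30 weeks. The nature of the replicates is not described, so p-values measure the spread between these samples, which may be technical. In such bulk RNA, fewer cells that express a gene and less RNA per cell cannot be told apart.

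MYOD1 (chr11:17719571-17722136, plus strand, a protein-coding gene) was the most abundant of the 9 per length in the 30-week controls and scarce elsewhere. Its counts in the 3 controls at 30 weeks were 2461, 1823 and 2357, which is 106, 65.8 and 84.4 CPM. The 4 exposed samples at 30 weeks had 21, 9, 9 and 13 counts, or 0.761, 0.315, 0.313 and 0.458 CPM. No sample of either group came near the other, and every 30-week control also lay above each of the 8 samples of batch 1. At 24 h the control samples had 10 and 12 counts and the exposed samples 11 and 4. At 15 weeks the control samples had 64 and 194 counts and the exposed samples 44 and 48. In CPM the groups ordered as 30-week controls (85.3 ± 20.03, SD, n = 3), 15-week controls (3.87 ± 2.62, n = 2), 15-week exposed (1.46 ± 0.136, n = 2), 30-week exposed (0.462 ± 0.210, n = 4), 24 h controls (0.383 ± 0.0520, n = 2) and 24 h exposed (0.310 ± 0.223, n = 2). The last 3 groups overlapped, whereas the others did not overlap with their neighbours in this order.

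The fitted log2 fold change of MYOD1 in exposed against control cells at 30 weeks was -7.52 (SE 0.357), the 27th lowest of 16740 genes. As a ratio of summed counts, the 30-week controls held 183-fold more than the 30-week exposed cells (95% exact interval of counting error 139.7 to 245.9). Against the 24 h controls the ratio was 219.8 (145.1 to 351), and against the 15-week controls it was 21.4 (18.9 to 24.3). These intervals, here and below, cover counting error only, since reads without molecular identifiers are not independent molecules.

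MYOG (chr1:203083129-203086012, minus strand), whose promoter window is printed above, was detected almost exclusively in the 30-week controls. These had 63, 59 and 89 counts, or 2.71, 2.13 and 3.19 CPM. The exposed samples at 30 weeks had 0, 3, 0 and 0 counts. In batch 1 a single read was counted, in 1 of the 2 control samples at 24 h. The 30-week controls therefore stood above all other samples, at least 58.4-fold above the 15-week controls as a group (0 counts, set to the floor of 3 counts per group). Against the 30-week exposed cells the ratio was 101, with an interval of 34.1 to 493.8, and the fitted log2 fold change was -6.44 (SE 0.652), or -9.26 without exposed replicate 2, which held all 3 counts of that group, so that this second value depends on the prior count and is no bound. MYOG passed the filter on low counts through the 30-week controls alone.

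MYF5 (chr12:80716912-80719671) and MYF6 (chr12:80707634-80709474), which sit side by side on the plus strand, gave no read in any sample. The floor of 3 counts corresponds to between 0.0885 and 0.129 CPM in a single sample, which is the level these data could have missed.

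Of the upstream factors, PAX3 (chr2:222199887-222298998, minus strand), a paired-box factor of the early somite and also of neural crest, was low throughout. Its counts were 21, 18 and 43 in the 30-week controls (0.903, 0.650 and 1.54 CPM) and 2, 0, 2 and 1 in the 30-week exposed samples. One control sample at 15 weeks had 6 counts and its partner 0, the exposed samples at 15 weeks had 1 and 0, and all 24 h samples were at 0. The 30-week controls lay above all other samples, although PAX3 too passed the filter through this group alone. Its fitted log2 fold change at 30 weeks was -4.42 (SE 0.750), and the ratio of summed counts was 23.6 (9.694 to 74.5). PAX7 (chr1:18630846-18748866, plus strand), the factor of adult satellite cells, was at 0 counts in all 15 samples.

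SIX4 (chr14:60709539-60724351, minus strand), a homeobox factor that binds MEF3 sites, was expressed in every group. The 30-week controls had 25.4, 26.5 and 24.1 CPM and the 30-week exposed samples 7.24, 7.85, 7.54 and 6.27 CPM. The 24 h controls had 10.9 and 9.20 CPM and the 24 h exposed samples 10.2 and 11.7 CPM. The 15-week controls had 8.47 and 8.35 CPM and the 15-week exposed samples 7.97 and 7.59 CPM. SIX4 thus stood higher in the 30-week controls than in any other sample, by 2.3-fold to 3.5-fold over the other groups in summed counts. In this gene the difference at 30 weeks (log2 fold change -1.81, SE 0.122) was a shift of a level that was present in all samples. Among the other groups, the 24 h samples of both arms overlapped, and so did the exposed samples of 15 and 30 weeks.

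The MEF2 genes behaved differently from each other. MEF2C (chr5:88717117-88904105, minus strand) followed MYOD1. The 30-week controls had 561, 760 and 569 counts (24.1, 27.4 and 20.4 CPM), and the 30-week exposed samples had 0, 18, 2 and 2. The 15-week controls had 14 and 50 counts, the 15-week exposed samples 10 and 4, and all 4 samples at 24 h had 0. The 30-week controls were far above the rest, while the 30-week exposed samples overlapped with the 15-week exposed samples. The ratio to the 30-week exposed cells was 123.4 (81.3 to 197.4), to the 15-week controls 24.5 (19.1 to 32), and to the 24 h controls at least 458.8. The fitted log2 fold change at 30 weeks was -6.92 (SE 0.548), and -8.86 without exposed replicate 2, which held 18 of that group's 22 counts. Whether counting used the strand is not given in the sources used here. MEF2C-AS1, which overlaps MEF2C, had 8 to 16 counts in the 30-week controls and 0 in the exposed cells, and without strand the reads of such a pair cannot be told apart.

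MEF2A (chr15:99565417-99716488, plus strand), the widely expressed member of the family, was the only one of the 6 genes with counts that lay lower in the 30-week controls. These had 28.5, 32.6 and 32.4 CPM, and the 30-week exposed samples had 34.98, 38.8, 35.6 and 37.0 CPM. The 24 h controls had 43.1 and 42.7 CPM and the 24 h exposed samples 38.2 and 36.7. The 15-week controls had 37.1 and 36.2 CPM and the 15-week exposed samples 41.9 and 36.5. The 30-week controls were below all other samples, yet by a small margin, with ratios of 0.730 to 0.855 to the other groups. The fitted log2 fold change at 30 weeks was 0.23 (SE 0.100).

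**Figure D1:**
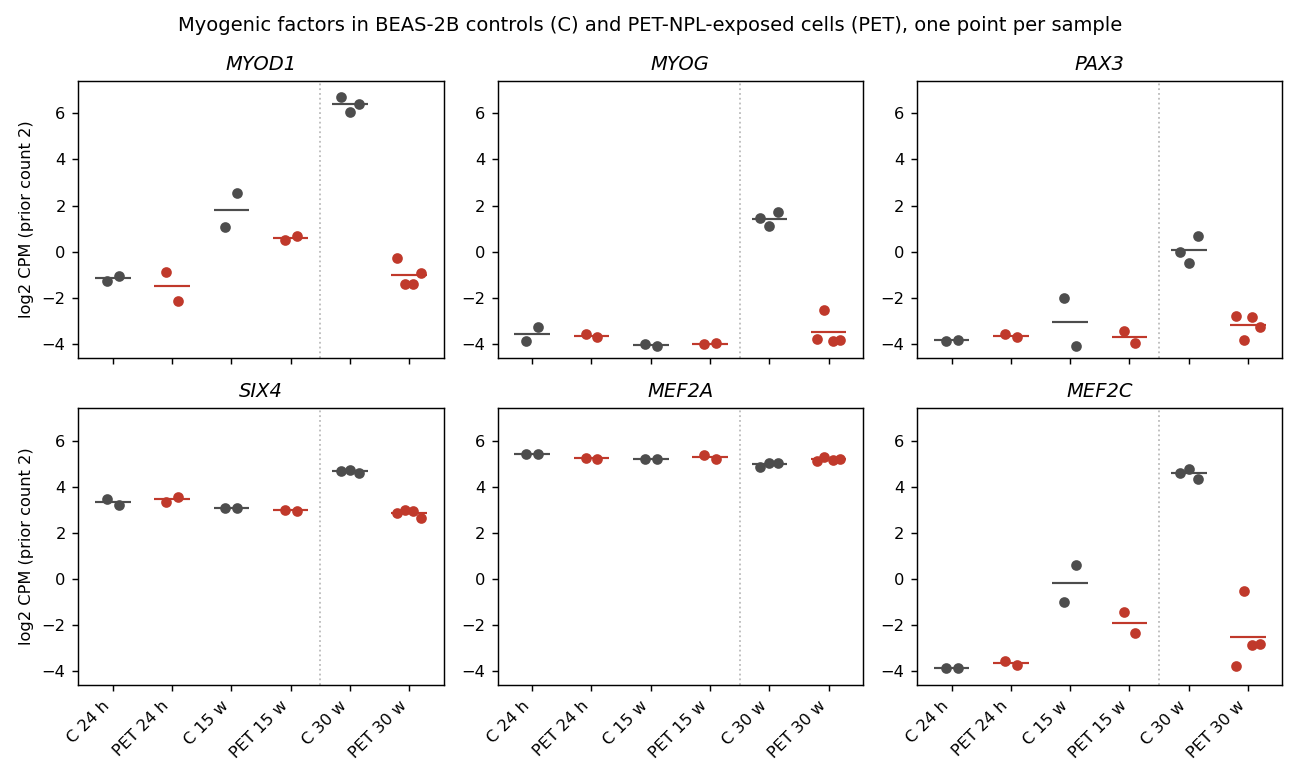
Levels of the 6 genes with counts in each sample, as log2 CPM (prior count 2), for controls (C, grey) and PET-NPL-exposed cells (PET, red) at 24 h, 15 weeks (15 w) and 30 weeks (30 w). Points are samples, horizontal lines group means, and the dotted line separates batch 1 from batch 2. MYOD1, MYOG, PAX3, SIX4 and MEF2C were highest in the 3 controls at 30 weeks, and MEF2A was lowest there.

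Of the 6 genes, MYOD1, MYOG, PAX3, SIX4 and MEF2C had all 3 controls at 30 weeks above the other 12 samples. Among all genes tested, 7.91% had this pattern, and 7.45% had the pattern of MEF2A, with the 30-week controls lowest. By mean CPM, MYOD1, MYOG and MEF2C were at least 100-fold higher in the 30-week controls than in the 30-week exposed cells, a size reached by 0.311% of all genes. The counting intervals of MYOG (34.1 to 493.8) and MEF2C (81.3 to 197.4) reach below 100, and the fitted fold of MYOG was 86.9. As the genes were chosen for these differences, nothing is read from the counts. For scale, 23.7% of all genes tested differed between exposed and control cells at 30 weeks (adjusted p under 0.05), 12% higher and 11.7% lower in exposed cells. With scaling by library totals alone that split became 3654 higher and 1072 lower, against 2009 and 1952 with TMM, and the median log2 fold change of all genes moved from 0.01 to 0.22. The differences of MYOD1 (-7.28), MYOG (-6.23), MEF2C (-6.72), PAX3 (-4.21) and SIX4 (-1.60) kept their sign under it, and MEF2A stood at 0.44.

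Per length of exon (CPM per kilobase of the union of exons in GENCODE v44), the levels in the 30-week controls were 47.3 ± 11.1 for MYOD1, 4.37 ± 0.326 for MEF2A, 3.74 ± 0.176 for SIX4, 2.04 ± 0.301 for MEF2C, 1.77 ± 0.351 for MYOG and 0.130 ± 0.0577 for PAX3 (SD, n = 3). MEF2C and MYOG overlapped in this order and the others did not. In the 30-week exposed cells MEF2A led with 5.14 ± 0.235, followed by SIX4 at 1.07 ± 0.101 and MYOD1 at 0.256 ± 0.117 (n = 4). MYOD1 thus moved from the top of the list to below SIX4.

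The comparisons among the samples at 24 h and 15 weeks, all of batch 1, do not hold the 30-week controls, although those samples were among the groups that the controls were set against when the genes were chosen. None of the 6 genes was called for exposure at 24 h, nor was any gene in the table (0% called by edgeR, with 277 genes at an unadjusted p under 0.05, and 0 genes by DESeq2 and by limma-voom). MYOD1 differed there by -0.33 on the log2 scale (SE 0.772, adjusted p = 1.00), SIX4 by 0.13 (SE 0.162) and MEF2A by -0.20 (SE 0.131). With 4 to 12 counts per sample, a difference of MYOD1 within that error was not detectable at this depth.

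After 15 weeks, MYOD1 was lower in both exposed samples than in both controls, with a log2 fold change of -1.41 (SE 0.416). Its unadjusted p was 0.00381 and its adjusted p 0.666, so it did not pass the test, and neither did any other gene (0% called by edgeR, 823 at an unadjusted p under 0.05). DESeq2 called 17 genes, limma-voom 0, limma-voom with surrogate variables 10 and edgeR on the 4 samples of 15 weeks alone 304, where MYOD1 came to an adjusted p of 0.0504, the lowest among the alternatives. The value moved from -1.96 to -0.47 over the alternatives, the smaller one without control replicate 2, which had 194 counts against 64 in replicate 1. MEF2C differed by -2.10 (SE 0.853, unadjusted p = 0.0273, adjusted p = 0.970), again with both exposed samples below both controls, a pattern of 22% of all genes. The difference of the exposure effect between 15 weeks and 24 h was -1.08 (SE 0.903, adjusted p = 1.00) for MYOD1, and edgeR called 0 genes for it (644 at an unadjusted p under 0.05), as did DESeq2 and limma-voom.

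In control cells MYOD1 rose between 24 h and 15 weeks by 3.33 on the log2 scale (SE 0.517, adjusted p = 0.000191), with both samples above both 24 h samples, as in 33.6% of all genes, and stayed called in all 17 alternatives (adjusted p from 1.88e-09 to 0.00627). MEF2C rose with it, from 0 counts to 14 and 50, at least 18.7-fold (adjusted p = 0.00671). These were 2 of the 6 genes, where 24.9% of all genes were called, 12.7% upwards. The MEF2C call was lost without 24 h control replicate 1 (adjusted p = 0.0516) or without 15-week control replicate 2 (0.0639). SIX4 (-0.26, SE 0.162, adjusted p = 0.282) and MEF2A (-0.23, SE 0.130, adjusted p = 0.236) did not pass the test in these controls. Over the same interval the epithelial keratins KRT7 (fitted log2 fold change -6.19, SE 0.417, adjusted p = 3.36e-08) and KRT17 (-6.43, SE 0.551, adjusted p = 4.61e-07) fell in the controls, and in the exposed cells KRT7 was at -7.88 (SE 0.453, adjusted p = 5.47e-09) and KRT17 at -8.85 (SE 0.668, adjusted p = 1.07e-07). Their part in the MYOD1 result was not tested.

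In exposed cells MYOD1 also rose from 24 h to 15 weeks, by 2.25 (SE 0.615, adjusted p = 0.0129), with both samples above both 24 h samples as in 35.2% of all genes. SIX4 fell by 0.49 on the log2 scale (SE 0.163, adjusted p = 0.0347), with both samples below. In this comparison 26% of all genes were called, 13.5% up and 12.5% down. Both calls were fragile. The call of MYOD1 was lost with limma-voom (0.0559), without 24 h exposed replicate 2 (0.151) and without 15-week exposed replicate 2 (0.0583). That of SIX4 was lost in 9 of 17 alternatives, each replicate left out among them (adjusted p up to 0.234). MEF2C, with 0 counts at 24 h and 10 and 4 at 15 weeks, was at least 3.68-fold higher without passing the test (adjusted p = 0.144).

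**Figure D2:**
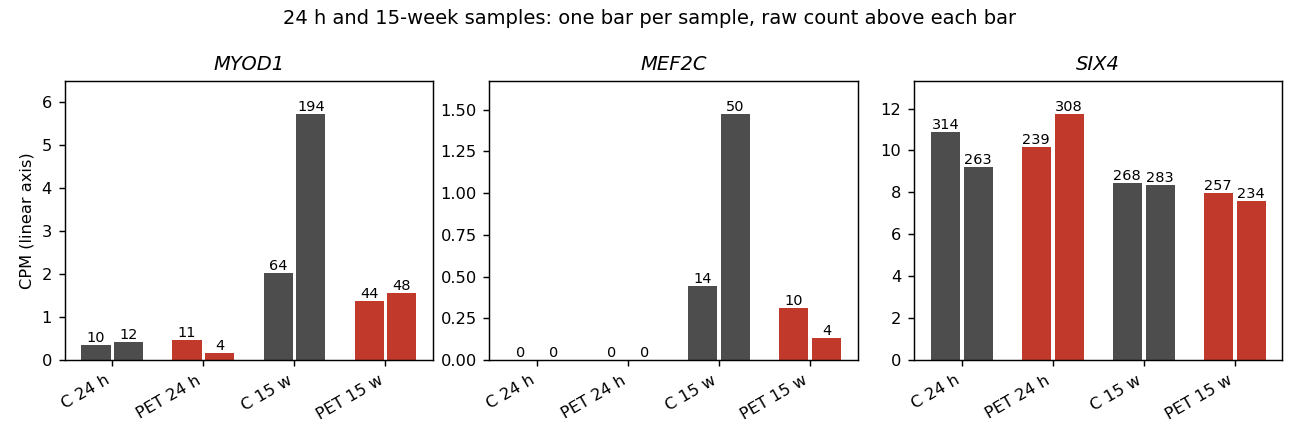
Linear CPM of MYOD1, MEF2C and SIX4 in the 8 samples of batch 1, 1 bar per sample with its raw count above it (controls grey, exposed cells red). The 15-week samples of both arms exceed the 24 h samples for MYOD1 and MEF2C, with 194 and 50 counts in the same 15-week control sample. SIX4 runs from 7.59 CPM in a 15-week exposed sample to 11.7 CPM in a 24 h exposed sample.

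From 15 to 30 weeks MYOD1 fell by 1.66 on the log2 scale in exposed cells (SE 0.454, adjusted p = 0.00733), all 4 samples lying below both 15-week samples as in 28% of all genes, and it was the only one of the 6 genes called. Here 46% of all genes were called, 22.7% downwards, and the comparison crosses the batches, so the time and the batch cannot be told apart. Without 15-week exposed replicate 2 the adjusted p was 0.0529. In control cells, by description, MYOD1 went the other way, with a fitted log2 fold change of 4.45 (SE 0.384), where 50.3% of all genes were called. MEF2C in exposed cells was at -0.19 (SE 0.984, adjusted p = 0.895), and its sign changed between alternatives. SIX4 (-0.11, SE 0.141, adjusted p = 0.562) and MEF2A (-0.10, SE 0.112, adjusted p = 0.492) did not pass the test.

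Genes of a list named early targets of the myogenic factors differed at 30 weeks. The list also holds sarcomere genes such as NEB and TTN and a gene of the sarcoplasmic reticulum, JSRP1. None of the tested genes of mature fibres was called, but only 5 of 20 passed the filter, so the lists do not separate early from mature stages. Of 46 early targets in the table, 29 passed the filter, and 25 were lower in exposed cells, 0 higher and 4 did not pass the test, with a median log2 fold change of -3.53 against 0.01 over all genes. Among these 29, 7 passed the filter through the 30-week controls alone. Of the remaining 22, 18 were lower, beside 11.1% of all genes that passed without that group. Their median log2 fold change was -2.65, while the median of -3.53 includes the 7 genes whose low values in exposed cells were largely set in advance. The list was drawn with results of these samples known, so its direction is not independent evidence. The summed level of the 46 genes was 856 to 964 CPM in the 30-week controls and 154 to 167 CPM in the exposed cells.

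The largest of these fitted differences was that of JSRP1, a protein of the junctional sarcoplasmic reticulum. It had 2104, 1936 and 1887 counts in the 30-week controls and 2, 9, 1 and 2 in the exposed samples (log2 fold change -9.21, SE 0.344). CDH15, the muscle cadherin of myoblasts, had 956, 734 and 1251 counts against 3, 6, 1 and 1 (-8.53, SE 0.458). Both passed the filter through the 30-week controls alone, as did CHRND, DES, TNNI1, SGCA and XIRP1, so no p is given for them. In all of these genes every control at 30 weeks lay above every exposed sample, as in 13% of all genes tested. Because they passed the filter through those controls, this separation was largely set in advance and is a description only. RAPSN, which clusters acetylcholine receptors at the neuromuscular junction, was at 37.1 ± 0.737 CPM in the controls and 0.0969 ± 0.0522 in the exposed cells. CHRNA1, the alpha subunit of that receptor, was at 47.7 ± 0.917 against 0.131 ± 0.219 CPM. TNNT2, a troponin T of heart and embryonic skeletal muscle, was at 38.4 ± 8.25 against 0.176 ± 0.143 CPM. TRIM55, a ubiquitin ligase of the sarcomere, was at 114.7 ± 18.6 against 0.711 ± 1.19 CPM.

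Not every early target took part. MYH3, the embryonic myosin heavy chain, had 80, 94 and 74 counts in the 30-week controls and 112, 87, 87 and 109 in the exposed cells, which overlap. NEB, TTN and MYPN, a group of sarcomere genes that were expressed in all groups, did not pass the test either. Of the 20 genes of mature fibres in the table, 5 passed the filter and 0 of these were called. The adult fast myosin genes MYH1 (3, 10 and 4 counts) and MYH4 (3, 20 and 10 counts) were read in the 30-week controls and had 0 counts in the 30-week exposed cells, too few to be tested.

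Other activators of the muscle programme split. Of 27 genes in the list, 21 passed the filter, and 8 were lower, 3 higher and 10 not called in exposed cells at 30 weeks (median log2 fold change -0.10), beside 11.7% and 12% of all genes. VGLL2, a cofactor of TEAD proteins in muscle, had 908, 730 and 787 counts in the 30-week controls and 47, 36, 20 and 23 in the exposed samples (-4.80, SE 0.384, adjusted p = 3.29e-07). MSC, whose product musculin is known to repress MYOD1 targets although it stands in this list, had 81, 69 and 101 counts against 1, 2, 3 and 0 (-5.80, SE 0.467, adjusted p = 1.93e-07). EYA1, a transcriptional coactivator, was lower (-2.18, SE 0.146), as were SMARCD3, a chromatin remodelling subunit that MYOD1 recruits (-1.54, SE 0.121), and TBX1, a factor of head muscle (-1.42, SE 0.217). EYA2 (0.59, SE 0.189), EYA4 (0.43, SE 0.114) and KAT2B (0.40, SE 0.125), an acetyltransferase that acts on MYOD1, were higher, and EYA2 overlapped between the groups.

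Most inhibitors of myogenesis that differed were also lower. Of 24 tested from a list of 25, 8 were lower, 1 higher and 15 not called at 30 weeks in exposed cells. Among all genes tested, 11.7% were lower and 12% higher. The median log2 difference of the list was -0.22. HEY1, a repressor downstream of Notch, was at 6.47 ± 0.163 CPM in the 30-week controls and 0.609 ± 0.111 in the exposed cells (-3.40, SE 0.192, adjusted p = 4.80e-09). ID2, which holds back helix-loop-helix factors by binding their partners, was at 250.2 ± 59.7 against 47.2 ± 22.3 CPM (-2.41, SE 0.272), and ID1 at 143.7 ± 46.2 against 67.7 ± 13.7 CPM (-1.09, SE 0.185). HEYL (-1.94, SE 0.443), the receptor NOTCH3 (-1.43, SE 0.335) and the repressor ZEB1 (-1.10, SE 0.100) were lower as well, with NOTCH3 overlapping between groups. HES1, another Notch target, was the 1 that was higher (0.98, SE 0.259, adjusted p = 0.0121). Genes that promote and genes that restrain myogenesis thus both had lower members in the exposed cells.

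**Figure D3:**
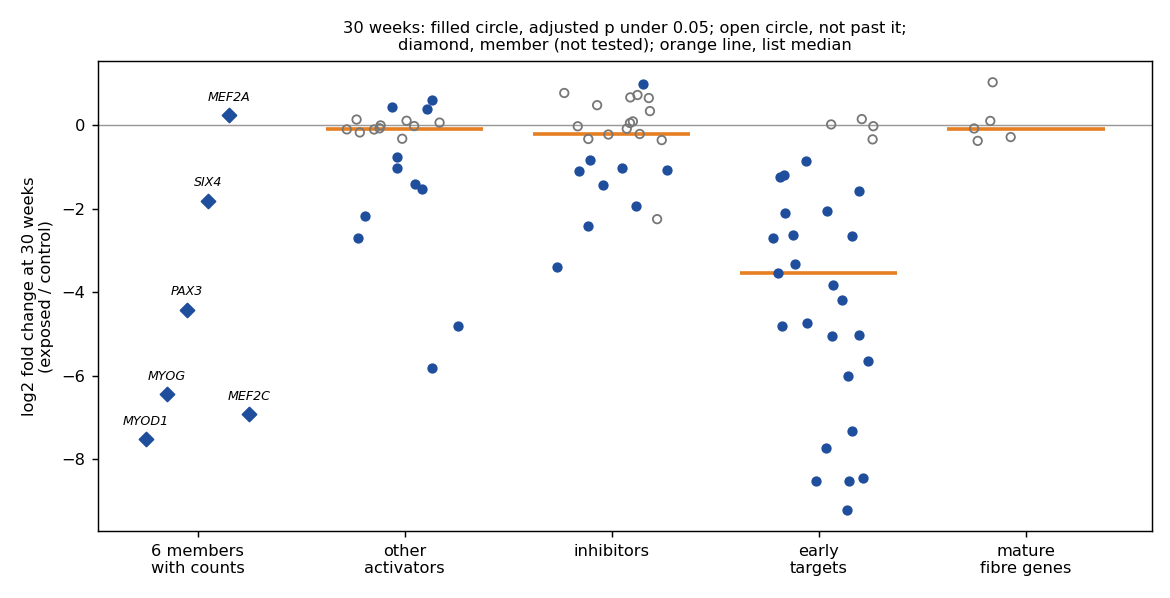
Log2 fold change at 30 weeks (exposed over control) for the 6 members with counts (diamonds, not tested) and for each tested gene of the 4 lists. Filled circles passed an adjusted p under 0.05, open circles did not, and orange lines are list medians. Early targets spread down to -9.21 with a median of -3.53, whereas the other 3 lists centre near 0. Without the early targets that passed the filter through the 30-week controls alone, their median was -2.65.

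Markers of other cells moved beside these genes. Of 15 airway epithelial markers 9 were tested, and KRT8, KRT15, KRT18 and KRT19 were higher in exposed cells at 30 weeks, beside 12% of all genes. The summed level of all 15 markers was 317 to 413 CPM in the 30-week controls and 884 to 1101 CPM in the 30-week exposed cells. In the 24 h controls this sum was 2126 to 2465 CPM, with KRT7 alone at 1215 and 1414 CPM. Of 12 satellite cell and myoblast markers 8 were tested and CDH15, VCAM1, FGFR4 and DES were lower. Of these, CDH15, VCAM1 and DES passed the filter through the 30-week controls alone, and among the 5 markers that passed without them only FGFR4 was called, beside 11.1% of all genes tested in that way. CALCR was at 0 throughout, and the summed level was 789 to 993 against 707 to 731 CPM. The 10 smooth muscle markers summed to 255 to 269 against 384 to 501 CPM, and MYOCD was at 0. Of 8 tested, 3 were higher and 1 lower, beside 12% and 11.7% of all genes. The 10 heart markers summed to 1.503 to 1.85 against 1.37 to 2.35 CPM, and GATA4, TBX5, HAND2 and MYH6 were at 0. The 10 fibroblast markers summed to 479 to 602 against 375 to 436 CPM, 10 neural crest markers to 29.5 to 38.8 against 37.5 to 60.5 CPM and 8 endothelial markers to 2.43 to 3.03 against 2.22 to 3.66 CPM. Of 4 heart markers tested 1 was higher and 0 lower, and of 8 fibroblast markers 1 was higher and 2 lower. One of these 2 passed the filter through the 30-week controls alone. Of 5 neural crest markers 3 were higher and 0 lower, and of 4 endothelial markers 3 were higher and 1 lower. The part of these shifts, and of the small noncoding RNAs, in the muscle result was not tested, although without those 6 RNAs the log2 fold changes at 30 weeks were -7.52 for MYOD1, -6.44 for MYOG, -6.91 for MEF2C, -4.42 for PAX3 and -1.80 for SIX4.

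The genes beside the members differed from one locus to the next. MNAT1, 10409 bases from SIX4 on chromosome 14, was at 20.2 ± 2.92 CPM in the 30-week controls and 17.5 ± 7.91 CPM in the exposed cells, and did not pass the test (log2 fold change -0.21, SE 0.228, adjusted p = 0.558).

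PPFIA4, which ends 4392 bases from MYOG, was at 16.6 ± 3.94 CPM in the 30-week controls and 3.14 ± 0.720 in the exposed cells (-2.40, SE 0.184, adjusted p = 1.17e-07). ADORA1, 41713 bases away on the other side of MYOG, was at 9.74 ± 2.37 against 4.93 ± 0.884 CPM (-0.98, SE 0.200, adjusted p = 0.00204). MYOG's neighbours therefore were lower in exposed cells with it. Near MYOD1 the noncoding LINC02729 had 8 to 15 counts in the 30-week controls, 0 to 2 in the exposed cells and 0 in batch 1, whereas KCNC1, 12644 bases away, was not called (-0.31, SE 0.318, adjusted p = 0.528). PTPRQ, next to the silent MYF5 and MYF6, was at 0.553 ± 0.116 against 0.159 ± 0.0828 CPM (adjusted p = 0.00890). Beside PAX3, EPHA4 went the other way, at 17.0 ± 2.69 CPM in the 30-week controls and 27.3 ± 1.30 in the exposed cells (0.68, SE 0.151, edgeR adjusted p = 0.00375). SGPP2, ALDH4A1, LRRC28 and CETN3, beside PAX3, PAX7, MEF2A and MEF2C in this order, did not pass the test (edgeR adjusted p from 0.325 to 0.983).

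**Figure D4:**
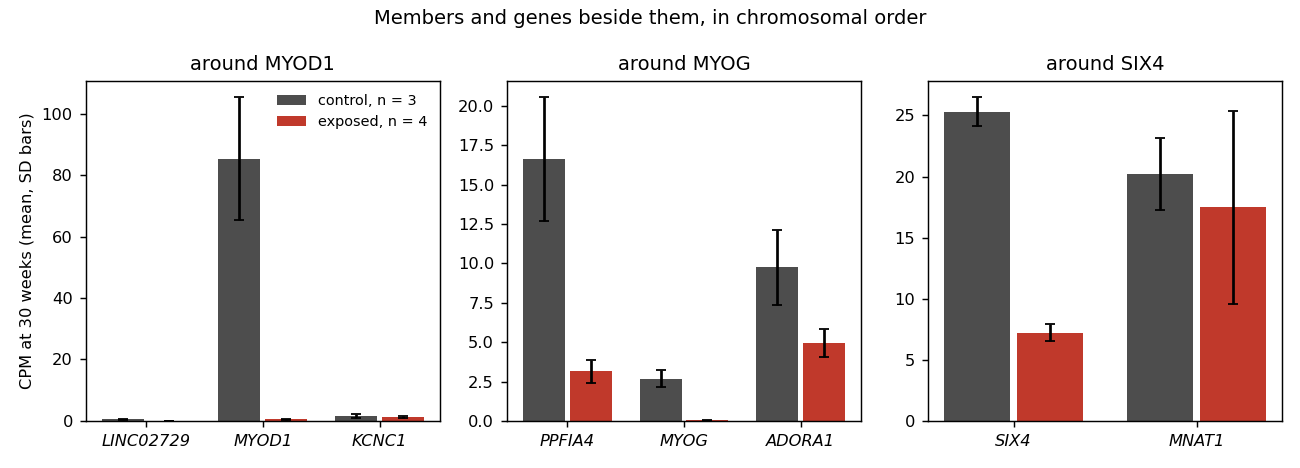
Mean CPM (linear axis, SD bars) at 30 weeks of MYOD1, MYOG and SIX4 and of genes beside them, in chromosomal order, for controls (grey, n = 3) and exposed cells (red, n = 4). PPFIA4 is higher in controls like MYOG beside it, while KCNC1 and MNAT1 have overlapping error bars in the 2 groups.

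The genes whose pattern over the 15 samples was most like that of MYOD1, by Pearson correlation of log2 CPM among 13380 genes, were VCAM1 (0.983), DAAM2 (0.971), CHST2 (0.970), VCAN (0.970), ST8SIA2 (0.965), COL24A1 (0.964), CEP112 (0.962) and SPNS2 (0.959). Among the other members the value was 0.949 for MEF2C, 0.871 for MYOG, 0.865 for PAX3, 0.827 for SIX4 and -0.77 for MEF2A. All points share the contrast of 3 high samples with 12 low ones, so the values describe that contrast. VCAM1, an adhesion molecule, had 0 counts at 24 h, a mean of 0.569 CPM in the 15-week controls, 0.0790 in the 15-week exposed cells, 17.8 ± 2.60 in the 30-week controls and 0.0445 ± 0.0532 in the 30-week exposed cells. VCAN, a matrix proteoglycan, had 1.64, 14.4 and 87.5 CPM in the controls at 24 h, 15 weeks and 30 weeks and 2.20, 5.43 and 2.49 CPM in the exposed cells. As with MYOD1 and MEF2C, its level at 15 weeks lay between those of the other control groups.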

How the data were processed

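Total RNA of 15 BEAS-2B samples was sequenced. Reads were trimmed by the authors in Rfastp, then aligned to GRCh38 and assigned to genes with Rsubread (the submitters' notes name hg38 and featureCounts), and raw counts were deposited, which are used here without change. Strand and multi-mapping settings are not given in the sources used here. The authors' own model was limma-voom with surrogate variables.

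Here counts were filtered with filterByExpr on the 6 conditions (minimum count 10), scaled by TMM and fitted with the quasi-likelihood model of edgeR 4.0.16 in R 4.3.3, with 1 mean per condition over all 15 samples and Benjamini-Hochberg adjustment over 16740 genes (threshold 0.05). Log2 CPM used a prior count of 2, and groups at 0 were set to a floor of 3 counts. Count ratios carry exact 95% binomial intervals. Alternatives used limma 3.58.1, DESeq2 1.42.0 and sva 3.50.0. On simulated data, 87.7% of 195 genes changed 4-fold were recovered at 15 weeks and 92.8% at 30 weeks. Depth is given with the results. Replicate pairs all differed by more than sampling noise.

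The members and lists were chosen with earlier results of these data known. Genes named from lists were up to 6 per direction, by size of the change at 30 weeks among those called, plus the 8 genes most like MYOD1, the nearest genes with counts and leading cell markers. MYH3, NEB, TTN, MYPN, MYH1, MYH4, KRT7, KRT17, MEF2C-AS1 and the further satellite and epithelial markers were named after their values were seen. A gene that the rule names is not reported here. Positions, names and promoters came from RefSeq (GRCh38.p14).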

Additional observations from a re-analysis of the deposited data

Results flagged for a closer look

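MEF2C was flagged in the 4 exposed samples at 30 weeks because 1 sample lay far from the others. Exposed replicate 2 had 18 counts (0.631 CPM) and the other 3 had 0 to 2, so that its gap to the nearest sample was 0.888 of the group's whole range, above Dixon's 95% critical value for 4 samples. Tested in this way were 4 members (members with 3 counts or fewer in every sample were left out, a choice made after seeing the data). For normally distributed values chance flags about 1 in 20 groups, a rate that need not hold for counts this low. In the same sample MYOG had its 3 counts, TRIM55 71 counts against 1 to 5 in the other 3, TNNI1 19 against 0 to 3 and CHRNA1 13 against 0 to 2, while MYOD1 had 9. These genes were picked after their values were seen. This sample also correlated least with its group over all genes (r from 0.976 to 0.981, against 0.991 to 0.992 among the other 3). Its part in the MEF2C value was not tested beyond leaving it out, which gave a log2 fold change at 30 weeks of -8.86 in place of -6.92, and for MYOG of -9.26 in place of -6.44, where the remaining exposed samples are at 0 counts and the value depends on the prior count.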

How the results depend on the processing

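No member was called for exposure at 24 h or 15 weeks, or for the difference between these effects, under any alternative, those that left out 1 replicate included (0 to 0). The early targets had between 22 and 26 calls and the other activators between 8 and 11 (without single replicates 22 to 24 and 8 to 11). The inhibitors had 9 calls, 8 to 12 without single replicates and 14 with limma-voom and surrogate variables. The mature fibre genes had 0 calls, 0 to 0 without single replicates, 2 with no filter and 1 without the 6 small noncoding RNAs. The causes were not tested.

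The members called between 24 h and 15 weeks numbered 2 in controls (1 to 2 without single replicates, 1 without 24 h control replicate 1 or 15-week control replicate 2). In exposed cells they numbered 2, and 1 with limma-voom, upper-quartile scaling, no filter or library totals alone, 0 at an adjusted p under 0.01 and 0 to 1 without single replicates. From 15 to 30 weeks in exposed cells the number was 1, and 0 to 1 without single replicates. The scaling by library totals and the fits of batch 1 alone were added after seeing the data.

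Signs reversed in small values. Without 15-week exposed replicate 1, MEF2A reversed, and without single replicates it ran from -0.034 to 0.167 (15 weeks against 24 h, exposed), from -0.197 to 0.0012 (30 against 15 weeks) and from -0.0034 to 0.196 (exposure at 15 weeks). MEF2C from 15 to 30 weeks in exposed cells went to 0.56 without that sample and to 0.21, 0.09 and 0.08 without 30-week exposed replicates 1, 3 and 4 (range -2.13 to 0.56). MYOD1 at 24 h went to 0.29 without exposed replicate 2 (range -1.31 to 0.29), and PAX3 at 15 weeks to 2.20 without control replicate 1 (range -4.45 to 2.20).

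Same-numbered samples did not deviate together (r = -0.057 at 24 h, 0.027 at 15 weeks, and -0.12, 0.31 and 0.096 at 30 weeks), so the numbers were not taken to pair them. With the replicate block, 1 member was called between 24 h and 15 weeks in exposed cells, and MEF2C from 15 to 30 weeks stood at 0.14. Counts under about 20 per sample limit MYOG, PAX3 and the early values of MYOD1 and MEF2C.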

Other observations

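Among the 15-week controls, replicate 2 held more counts of some muscle-related genes than replicate 1, at similar depth (30245594 and 28600021 counts). MYOD1 had 194 against 64, MEF2C 50 against 14, TRIM55 223 against 51, CDH15 22 against 4, JSRP1 14 against 4, CHRNA1 15 against 3 and VCAM1 30 against 8. PAX3 went the other way, with 0 against 6, and SIX4 (283 and 268) and MEF2A (1228 and 1176) were close. Other muscle genes were also lower in replicate 2, among them MYOT (53 against 88), KLHL41 (16 against 20), FITM1 (7 against 14), CAV3 (4 against 10), SGCA (1 against 4) and ACTC1 (27 against 29). These genes were picked after their values were seen, and with 2 samples no test was made.

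Of a receptor and an adhesion molecule of myoblasts, the receptor differed at 30 weeks. FGFR4, a growth factor receptor of muscle progenitors, had 680, 550 and 911 counts in the 30-week controls and 155, 122, 158 and 191 in the 30-week exposed cells (log2 fold change -2.30, edgeR adjusted p = 1.43e-06). NCAM1, a neural and myoblast adhesion molecule, did not pass the test, with 1549, 1927 and 2342 counts against 2375, 1646, 2411 and 2145.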
